A study of Homo sapiens with 4 samples.

Results

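The genes described here are 10 members of the BCL2 family, the proteins that decide at the mitochondrial outer membrane whether a cell enters apoptosis. They were chosen by symbol and found through their Ensembl identifiers, and are 10 of the 58037 genes in the count table. Of these, 4 are anti-apoptotic (BCL2, BCL2L1, MCL1 and BCL2A1) and 6 are pro-apoptotic: the effectors BAX and BAK1, and the BH3-only genes BCL2L11, BBC3, PMAIP1 and BID. RNA-Seq counts were compared between OCI-AML3 cells that received sgNPM1A, a CRISPR guide against the mutant allele of NPM1 (mtNPM1), and OCI-AML3 cells that received the control guide, labelled sgNeg and named sgRNA Ctrl by the study. Both conditions were harvested 72 hours (3 days) after transfection, with 2 libraries each, 4 in all. OCI-AML3 is an established human acute myeloid leukemia (AML) line with heterozygous NPM1 and DNMT3A mutations and a homozygous NRAS mutation. All libraries derive from this line, and of these mutations the mutant NPM1 allele is the target of sgNPM1A. The labels give the genotype as the guide alone. The libraries come from transfected populations of a single cell line, and the share of cells edited in them is not known here.

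Anti-apoptotic BCL2 proteins hold the effectors BAX and BAK1 in check, and BAX and BAK1, once active, form pores that let cytochrome c out of the mitochondrion. BH3-only proteins tip that balance: they bind the groove of the anti-apoptotic proteins, and some of them also activate BAX and BAK1 directly. Myeloid leukemia cells often depend on BCL2 or MCL1 for survival, which is why BH3-mimetic drugs that fill this groove are used against AML.

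The contact between the sides is made by the BH3 stretch, and its coding sequences are shown here because the genes called lower among the members and the wider family were BH3-only genes. The core searched for was leucine, any 3 residues, glycine or alanine, and aspartate, read in the coding sequence of the MANE Select transcript (GENCODE release 44). It was found once in each of 9 of the 10 members, and not in BCL2A1. Capitals mark the 6 codons of the core, with the codons on either side in lower case, 5′ to 3′.
BCL2L11 (core from codon 152 of 198): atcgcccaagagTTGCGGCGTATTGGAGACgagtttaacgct
BIK (core from codon 61 of 160): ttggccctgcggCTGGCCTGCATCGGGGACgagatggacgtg
BID (core from codon 90 of 195): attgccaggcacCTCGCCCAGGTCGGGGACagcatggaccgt
BBC3 (core from codon 141 of 193): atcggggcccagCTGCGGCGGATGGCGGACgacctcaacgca
PMAIP1 (core from codon 29 of 54): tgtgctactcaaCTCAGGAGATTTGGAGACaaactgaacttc
BAX (core from codon 63 of 192): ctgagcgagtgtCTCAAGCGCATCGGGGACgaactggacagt
BCL2 (core from codon 97 of 239): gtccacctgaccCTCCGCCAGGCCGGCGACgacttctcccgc
BIK, printed beside the members, is a further BH3-only gene described below. The match is a description of the letters and not a measure of binding.

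The libraries held 25069484 and 25587774 counts with sgNeg, and 28276391 and 28209174 with sgNPM1A. In them 3 counts, the smallest count told from 0 here, equalled 0.108 to 0.118 CPM (a count divided by the effective library size, with TMM factors of 0.985 to 1.015), which covers counting error only. All 10 members passed the filter on low counts and were tested, among 15718 genes. The targeted gene NPM1 had 1319 and 1385 CPM with sgNeg and 1189 and 1132 CPM with sgNPM1A, which gave a log2 fold change of -0.22 (SE 0.07, adjusted p = 0.0360). These counts sum both alleles and do not read the edit, and of the 50-base stretches (words) in NPM1 transcripts 8.86% are found in other genes too. All 12 myeloid markers passed the filter on low counts, none of them at 3 counts or fewer throughout, as the label says. The 5 T cell markers were at 3 counts or fewer in each library, as were 5 of 7 erythroid markers. Of the 5 B cell markers only 1 was that low. The B cell list summed to 2.71 and 1.58 CPM with sgNeg and to 1.36 and 1.76 CPM with sgNPM1A.

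A gene was called at an adjusted p under 0.05 from edgeR's quasi-likelihood test over all tested genes together with a log2 fold change of at least 0.32 in either direction, the fold threshold of the study. Standard errors (SE) are on the log2 scale. Of all tested genes 20.8% were called, 10.5% higher and 10.3% lower with sgNPM1A. Of the 10 members 1 was called, BCL2L11, which was lower, and 0 were called higher, so that the share of members called lower was near the background. At an unadjusted p under 0.05 edgeR gave 1 member higher and 2 lower, DESeq2 0 higher and 2 lower, and limma-trend 1 higher and 3 lower. Of all 15718 tested genes, 5896 passed that cut-off with edgeR, 4421 with DESeq2 and 5896 with limma-trend, so nothing is read from these counts. The median log2 fold change of the 10 members was 0.10, against 0.00 for all tested genes. The 2 libraries of each condition did not overlap in 7 of the 10 members, 4 of them above and 3 below sgNeg. Such a separation was found in 63.1% of all tested genes, close to the share among the members. With 2 libraries on each side, the smallest two-sided p that exact permutation allows is 0.333, and the calls rest on the variance that edgeR shares between genes.

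**Figure D1:**
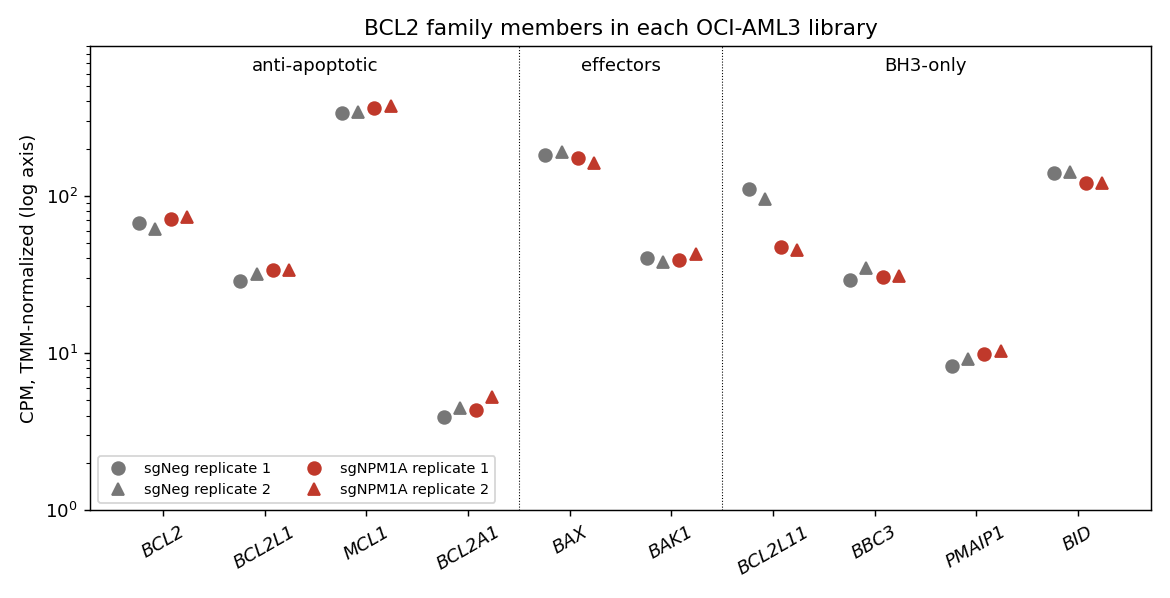
Level of each member in CPM (log axis) in the 4 OCI-AML3 libraries, grouped by role, with gray points for sgNeg, red points for sgNPM1A, circles for replicate 1 and triangles for replicate 2. BCL2L11 is the member whose sgNPM1A libraries, at 47.5 and 45.5 CPM, stand farthest from sgNeg, at 111 and 95.8 CPM.

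BCL2L11 encodes BIM, a BH3-only protein that binds every main anti-apoptotic member and can also activate BAX and BAK1. It (ENSG00000153094) lies on chromosome 2 at 111120914 to 111168445 (RefSeq positions here are those of GRCh38.p14). Its counts were 2815 and 2481 with sgNeg and 1325 and 1262 with sgNPM1A, or 111 and 95.8 CPM against 47.5 and 45.5 CPM. Both sgNPM1A libraries lay far under both sgNeg libraries. The mean was 103 ± 10.6 CPM (SD, n = 2) with sgNeg and 46.5 ± 1.47 CPM (SD, n = 2) with sgNPM1A. BCL2L11 thus fell to 45.0% of its sgNeg level, with a log2 fold change of -1.15 (SE 0.09, adjusted p = 3.08e-06). In all 13 other fits of the same libraries it was called lower, with log2 fold changes from -1.25 to -1.04 and adjusted p-values up to 2.76e-05. Among the tested genes 446 (2.84%), BCL2L11 included, had a log2 fold change as low or lower. Of the genes called lower, 17, again counting BCL2L11 itself, were at least as abundant and had a fall as large.

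Of the exon bases of BCL2L11, 10.8% are also covered on the opposite strand by the long non-coding RNA MIR4435-2HG, and whether the counting used strand is not given in the sources used here. MIR4435-2HG itself had 375 and 438 counts with sgNeg and 418 and 370 with sgNPM1A, which gave a log2 fold change of -0.16 (adjusted p = 0.345). Its libraries overlapped between the conditions, and its counts were far under those of BCL2L11. The counts sum all BIM splice forms. In bulk RNA a lower level per cell cannot be told apart from fewer cells that express the gene. The 12 myeloid markers moved with the condition: their summed level was 3263 and 3344 CPM with sgNeg and 8187 and 8856 CPM with sgNPM1A, and 9 of them were called higher. Their median log2 fold change was 0.49, between 0.04 and 3.63, so the sum does not give the shift of each marker. The 7 epithelial or stromal markers summed to 30.6 and 33.1 CPM with sgNeg and 14.7 and 10.7 CPM with sgNPM1A, with 2 called lower and 3 at 3 counts or fewer in each library. The part of either marker list in the level of BCL2L11 was not tested.

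None of the other BH3-only members was called. BID, which caspase-8 cleaves to link death receptors to mitochondria (ENSG00000015475, chromosome 22, 17734138 to 17774665), had 139.6 and 142 CPM with sgNeg and 121 and 120.9 CPM with sgNPM1A. Both sgNPM1A libraries were lower than both sgNeg libraries, and the replicates lay close together. The log2 fold change was -0.22 (SE 0.06, adjusted p = 0.0293), or 86.1% of the sgNeg level, under the fold threshold, so BID was not called. Without the fold threshold 26.0% of all tested genes passed the adjusted p. For BID that p was 0.0594 with DESeq2, 0.277 without sgNPM1A replicate 1 and 0.302 without sgNPM1A replicate 2.

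BBC3 encodes PUMA, a protein that binds all main anti-apoptotic members (ENSG00000105327, chromosome 19, 47220824 to 47232860). It had 29.0 and 34.6 CPM with sgNeg and 30.6 and 31.0 CPM with sgNPM1A, so that the sgNPM1A libraries lay between the sgNeg libraries. Its log2 fold change was -0.04 (SE 0.10, adjusted p = 0.780), and 0.090 without sgNeg replicate 2. PMAIP1 encodes NOXA, which binds mainly MCL1 and BCL2A1 (ENSG00000141682, chromosome 18, 59899996 to 59904305). It had 8.30 and 9.19 CPM with sgNeg and 9.79 and 10.3 CPM with sgNPM1A. The conditions did not overlap, and the difference, a log2 fold change of 0.20 (SE 0.12, adjusted p = 0.265), was not called.

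The effectors gave no call. BAX (ENSG00000087088, chromosome 19, 48954875 to 48961798) had 181 and 189 CPM with sgNeg and 174 and 162 CPM with sgNPM1A. The sgNPM1A libraries were the lower pair without overlap, at a log2 fold change of -0.14 (SE 0.07, adjusted p = 0.149). BAK1 (ENSG00000030110, chromosome 6, 33572552 to 33580276) had 40.2 and 38.1 CPM with sgNeg and 39.3 and 42.8 CPM with sgNPM1A. Its conditions overlapped, with a log2 fold change of 0.07 (SE 0.08, adjusted p = 0.602). Of the 50-base words of BAK1 transcripts 14.4% also occur in other genes, chiefly the pseudogene BAK1P1, which had between 2 and 4 counts in each library.

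All 4 anti-apoptotic members had log2 fold changes above 0, between 0.12 and 0.19, and none was called. Leaving out each library in turn gave 0.10 to 0.24 for BCL2, 0.072 to 0.24 for BCL2L1, 0.10 to 0.15 for MCL1 and 0.054 to 0.32 for BCL2A1. BCL2, the target of venetoclax (ENSG00000171791, chromosome 18, 63123346 to 63320090), had 67.5 and 61.2 CPM with sgNeg and 71.3 and 73.5 CPM with sgNPM1A. The sgNPM1A libraries were the higher pair, at a log2 fold change of 0.17 (SE 0.08, adjusted p = 0.132). MCL1, a short-lived protein that holds BAK1 and BIM (ENSG00000143384, chromosome 1, 150574558 to 150579610), had 338 and 339.6 CPM with sgNeg and 363 and 375 CPM with sgNPM1A. Here too the conditions did not overlap, and the log2 fold change was 0.12 (SE 0.06, adjusted p = 0.181).

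BCL2L1 gives the anti-apoptotic BCL-XL and, by another splice site, the pro-apoptotic BCL-XS, and the counts sum both (ENSG00000171552, chromosome 20, 31664452 to 31723963). It had 28.6 and 32.0 CPM with sgNeg and 33.6 and 33.7 CPM with sgNPM1A, which gave a log2 fold change of 0.15 (SE 0.09, adjusted p = 0.238). Both sgNPM1A libraries were above both sgNeg libraries, and stood closer to sgNeg replicate 2 than that library did to sgNeg replicate 1. The opposite-strand transcript ABALON covers 41.3% of the exon bases of BCL2L1, and had between 4 and 10 counts in each library. BCL2A1, a target of NF-kB in blood cells (ENSG00000140379, chromosome 15, 79960892 to 79971196), was the least counted member. It had 3.93 and 4.44 CPM with sgNeg and 4.34 and 5.22 CPM with sgNPM1A. The conditions overlapped, with a log2 fold change of 0.19 (SE 0.17, adjusted p = 0.456).

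Side by side, the 4 anti-apoptotic members had a median log2 fold change of 0.16, and the 6 pro-apoptotic members one of -0.09, with 2 above 0 and 4 below. Fits that omitted a single library gave anti-apoptotic medians of 0.11 to 0.18 and pro-apoptotic medians of -0.17 (without sgNeg replicate 1) to -0.039 (without sgNeg replicate 2). Without BCL2L11 the median of the other 5 pro-apoptotic members was -0.04, between -0.22 and 0.20. The median of all tested genes was 0.00. The members are not replicates of a condition, so no test was made between the sides. For BCL2, BCL2L1, MCL1 and BCL2A1 alike, the difference is smaller than the fold threshold.

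**Figure D2:**
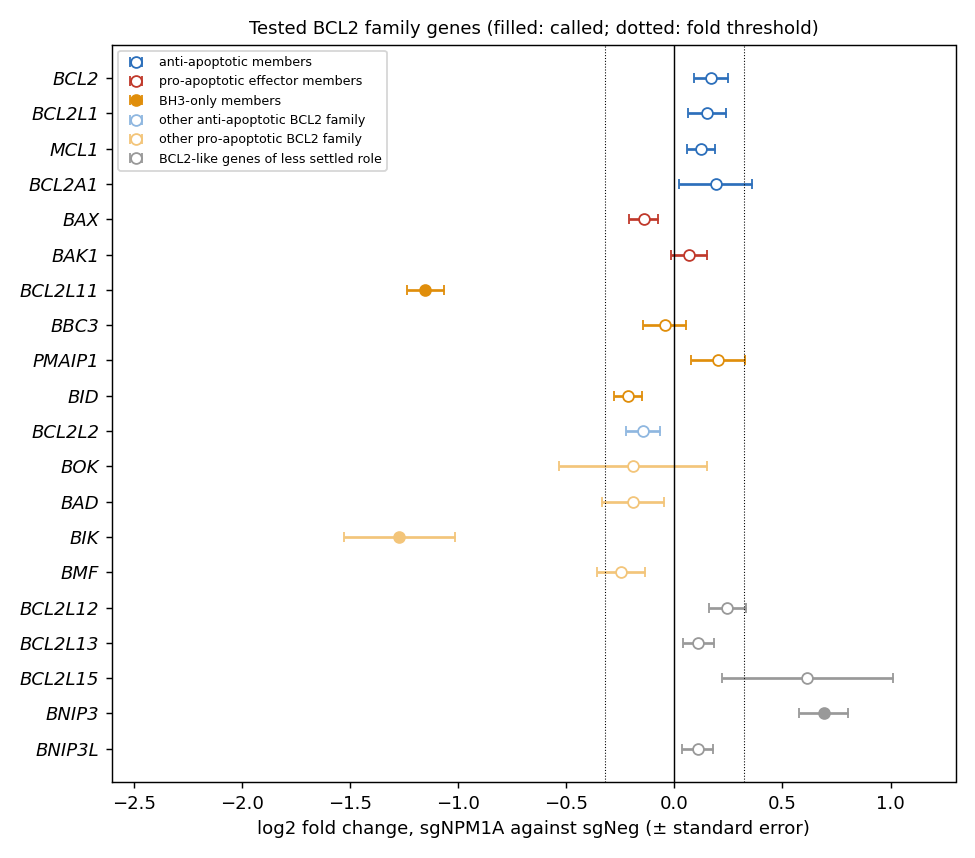
Log2 fold change of the 20 tested BCL2 family genes with sgNPM1A against sgNeg, with bars of 1 standard error, colored by role, filled where called, and with dotted lines at the fold threshold of 0.32 in either direction. BCL2L11 at -1.15 and BIK at -1.27 lie far left and BNIP3 at 0.69 lies right, and the 4 anti-apoptotic members sit between 0.12 and 0.19.

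Levels between genes were compared as CPM per kilobase of merged exons, a scale on which splice forms are not resolved. With sgNeg the order of the mean levels was BAX (71.7), MCL1 (54.4), BID (31.8), BAK1 (17.7), BCL2L11 (15.3), BBC3 (9.98), BCL2L1 (7.22), BCL2 (5.10), BCL2A1 (4.21) and PMAIP1 (4.00). Of the neighbors in this order BCL2A1 and PMAIP1 overlapped between libraries, and the others did not. With sgNPM1A BCL2L11 stood at 6.90, under BBC3 (9.67) and BCL2L1 (8.02), and the order of the other 9 was the same.

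The 4 anti-apoptotic members together summed to 70.4 and 71.5 CPM per kilobase with sgNeg and to 76.3 and 79.4 with sgNPM1A. MCL1 was between 75.9% and 77.1% of that sum in every library. The 4 BH3-only members summed to 60.9 and 61.3 CPM per kilobase with sgNeg and to 48.6 in both sgNPM1A libraries. BCL2L11 made up 27.0% and 23.2% of the BH3-only sum with sgNeg and 14.5% and 13.9% with sgNPM1A. BID made up the largest part, 51.9% and 52.3% with sgNeg and 56.5% and 56.3% with sgNPM1A. Without BCL2L11 the BH3-only sum was 44.5 and 47.1 with sgNeg and 41.6 and 41.8 with sgNPM1A, so that most of the difference in the sum came from BCL2L11.

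The ratio of the counts of an anti-apoptotic to a pro-apoptotic member within a library does not depend on how libraries are scaled. For every read on BCL2L11 there were 0.610 and 0.639 reads on BCL2 with sgNeg, and 1.50 and 1.62 with sgNPM1A. BCL2 was thus counted less often than BCL2L11 in both sgNeg libraries and more often in both sgNPM1A libraries. For MCL1 over BCL2L11 the count ratio was 3.05 and 3.54 with sgNeg and 7.63 and 8.26 with sgNPM1A. On the log2 scale the ratios of the 4 anti-apoptotic members over BCL2L11 were higher by 1.27 to 1.34 with sgNPM1A. Over BID the difference was 0.34 to 0.40 and over BAX 0.27 to 0.33, without overlap between the conditions. Over BBC3 it was 0.16 to 0.23, over BAK1 0.06 to 0.12, and over PMAIP1 -0.08 to -0.02. Of the 24 ratios 16 were higher with sgNPM1A without overlap, 1 was lower without overlap (BCL2L1 over PMAIP1) and 7 overlapped. Ratios of other gene pairs were not computed, and of single genes 63.1% did not overlap, so nothing is read from this count. Ratios that share a gene share its counts and are not independent of each other.

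**Figure D3:**
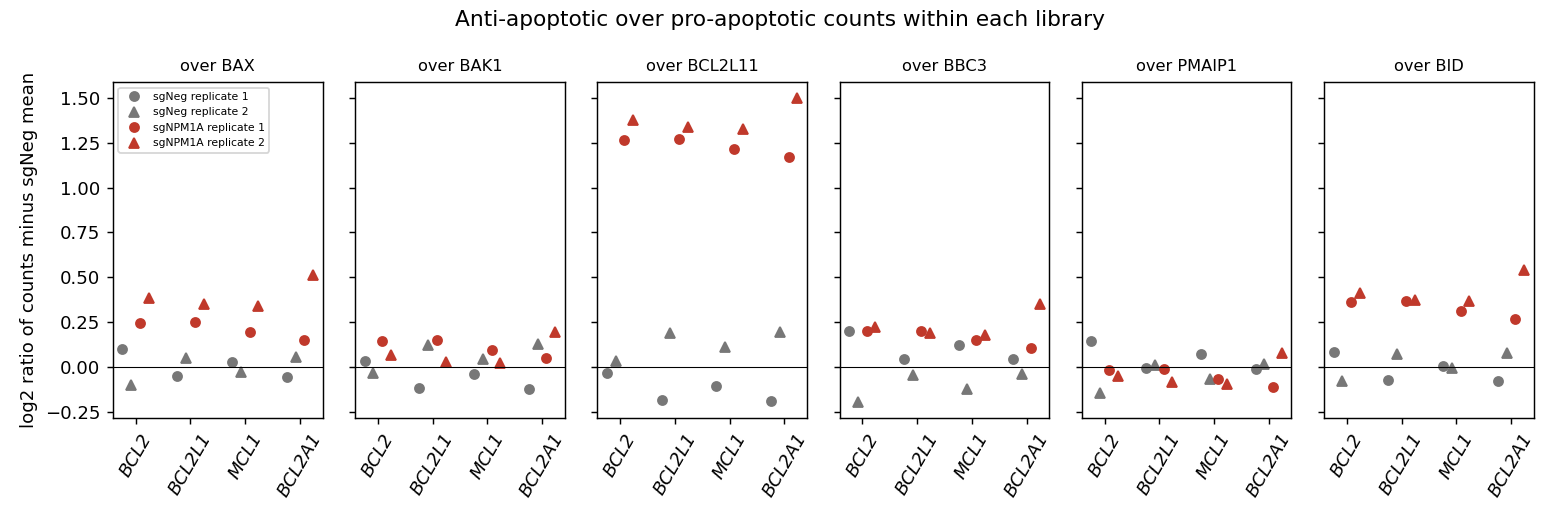
Log2 ratio of the counts of each anti-apoptotic member to each pro-apoptotic member within each of the 4 libraries, minus the mean of the sgNeg libraries (gray sgNeg, red sgNPM1A, circles replicate 1, triangles replicate 2). Over BCL2L11 the sgNPM1A libraries stand apart by 1.27 to 1.34 on average, and over PMAIP1 they lie within -0.08 to -0.02 of sgNeg on average.

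Of 13 further genes of the family, 10 passed the filter, of which 1 was called lower and 1 higher. These shares were near those of all tested genes, of which 10.3% were called lower and 10.5% higher. BIK, a BH3-only gene whose protein sits mostly at the endoplasmic reticulum (chromosome 22, 43110750 to 43129712), had 53 and 52 counts with sgNeg and 21 and 26 with sgNPM1A. At 2.09 and 2.01 CPM against 0.753 and 0.936 CPM its conditions were far apart, though at low counts. BIK fell by 1.27 on the log2 scale (SE 0.26, adjusted p = 0.00385), and was called lower in all 13 other fits, with an adjusted p of at most 0.0271. BNIP3, a BH3-like gene induced by hypoxia that marks mitochondria for removal (chromosome 10, 131967684 to 131981923), had 40.5 and 30.8 CPM with sgNeg and 57.9 and 57.1 CPM with sgNPM1A. It rose, on the log2 scale, by 0.69 (SE 0.11, adjusted p = 0.000939), and the gap between its sgNeg libraries was wide. Of the words of BNIP3 transcripts 12.9% occur in the pseudogene BNIP3P1. Its relative BNIP3L stood at a log2 fold change of 0.11 (adjusted p = 0.297).

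The remaining tested family genes were not called. The further pro-apoptotic genes BMF, BAD and BOK had log2 fold changes of -0.25, -0.19 and -0.19 (adjusted p = 0.130, 0.370 and 0.726), and the anti-apoptotic BCL2L2 had -0.14 (adjusted p = 0.211). Of the words of BCL2L2 20.0% also occur in other genes, and of those of BAD 16.2%. BCL2L12 had 68.1 and 80.0 CPM with sgNeg and 89.5 and 86.1 CPM with sgNPM1A. Its log2 fold change of 0.25 had an adjusted p of 0.0541, and 0.00778 without sgNeg replicate 2, where it was 0.37 and was called. Of the words of BCL2L12 24.5% also occur in other genes, chiefly IRF3 on the opposite strand. BCL2L13 stood at a log2 fold change of 0.11 (adjusted p = 0.291), and BCL2L15, at under 1 CPM in every library, 0.61 (adjusted p = 0.289). HRK had 0 counts in every library, BCL2L14 had at most 1 and BCL2L10 at most 5, and these were not tested.

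Beyond the family, 52 genes of the apoptosis pathway are described, of which 50 were tested. In them 6 were called higher and 5 lower, close to the 20.8% called among all tested genes, and the median log2 fold change was -0.06. Nothing is read from the counts of the single lists, which are described against that background. Downstream of the effectors stand cytochrome c and the apoptosome, with 13 genes, of which 1 rose. CYCS, cytochrome c itself, had 112 and 96.1 CPM with sgNeg and 134 and 159.8 CPM with sgNPM1A, and rose, on the log2 scale, by 0.50 (adjusted p = 0.00301). The conditions did not overlap. The apoptosome genes APAF1 and CASP9 were not called, at log2 fold changes of 0.04 and -0.29 (adjusted p = 0.810 and 0.164). Of the 6 tested inhibitor of apoptosis genes NAIP rose, at a log2 fold change of 1.46 (adjusted p = 0.00511), from 21 and 33 counts to 61 and 100. The caspase inhibitor XIAP, at -0.25 (adjusted p = 0.0617), was not called.

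Of the 13 tested death receptor genes 4 rose and 2 fell. The TRAIL receptor TNFRSF10A rose, on the log2 scale, by 0.62 (adjusted p = 0.00262), from 10.3 and 8.92 CPM to 15.1 and 14.5 CPM. CFLAR, which encodes FLIP, an inhibitor of caspase-8, rose by 0.35 (adjusted p = 0.00324). CASP8, the initiator caspase that cleaves BID, fell by 0.43 (adjusted p = 0.00231), from 39.3 and 39.8 CPM to 29.1 and 29.5 CPM, and the kinase RIPK1 fell by 0.37 (adjusted p = 0.00813). The receptor FAS and TNFSF10, which encodes TRAIL, were called higher at 0.41 and 0.32 (adjusted p = 0.0429 and 0.0308), and each lost its call in 8 of 13 other fits. CFLAR lost its call with library size only (0.31) and without sgNPM1A replicate 1 (adjusted p = 0.0597), and RIPK1 without that library (adjusted p = 0.115). The median of the list was -0.03.

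Among 10 genes named for the turnover of MCL1 protein 0 were called by edgeR, DESeq2 or limma-trend. By each of these tools 1 had an unadjusted p under 0.05, HUWE1, an MCL1 ubiquitin ligase. With edgeR HUWE1 was at a log2 fold change of -0.22 (adjusted p = 0.0457), under the fold threshold. Over all 15718 tested genes 5896 passed the unadjusted cut-off with edgeR, 4421 with DESeq2 and 5896 with limma-trend. The list's median was -0.09, and 8 of the 10 had a log2 fold change below 0, as had 7854 of all 15718 tested genes. In 6 of the 10 the conditions overlapped, as they did in 5798 of all 15718 tested genes. No direction for MCL1 protein is read from this list.

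**Figure D4:**
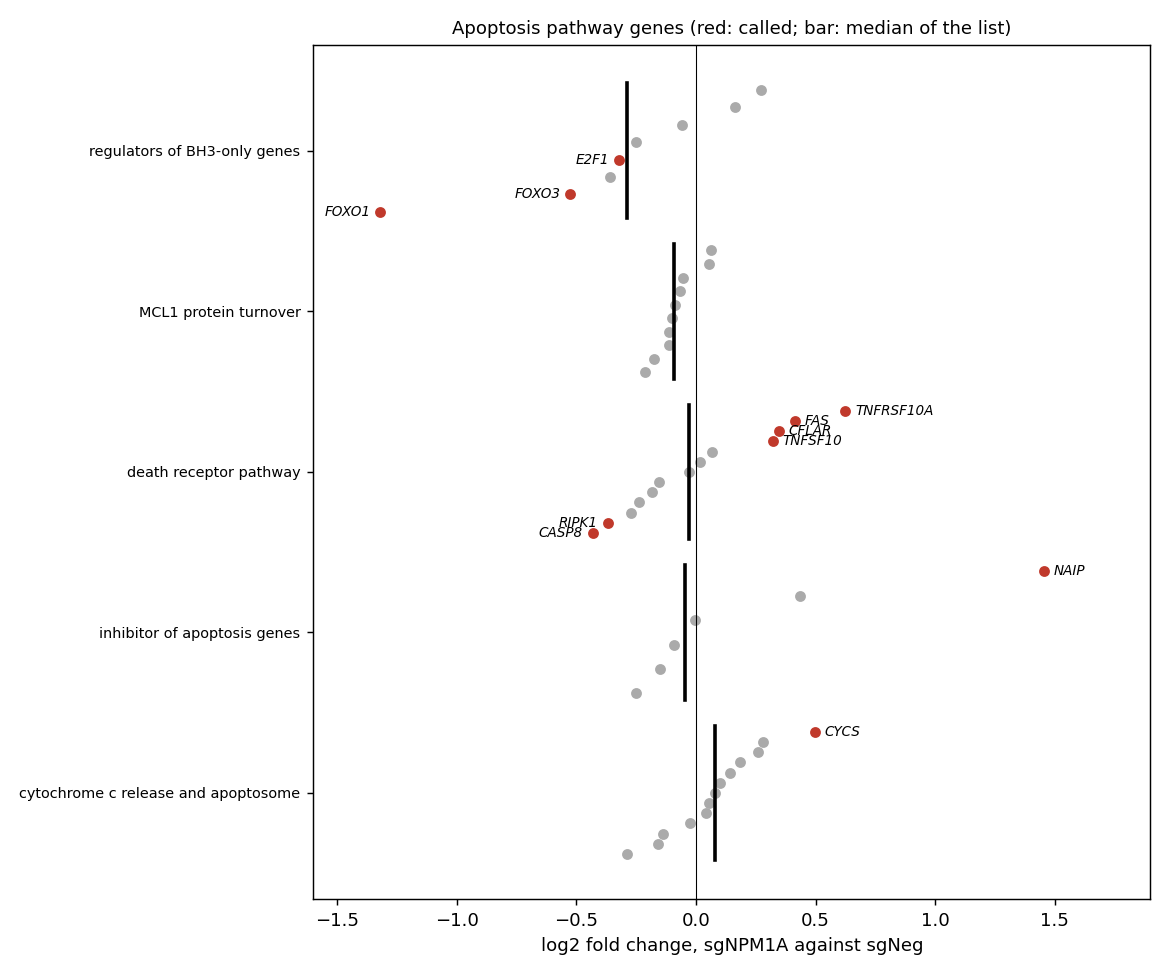
Log2 fold change with sgNPM1A against sgNeg of the 50 tested pathway genes in 5 lists, called genes in red with their names, other genes in gray, and the median of each list as a vertical bar. FOXO1 at -1.32 and FOXO3 at -0.52 are the lowest and NAIP at 1.46 the highest, and the medians lie between -0.29 and 0.08.

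Of 8 transcription factors named as regulators of BH3-only genes 3 fell and 0 were called higher. FOXO1, a forkhead factor, had 251 and 259 counts with sgNeg and 110 and 111 with sgNPM1A, and fell by 1.32 on the log2 scale (SE 0.14, adjusted p = 3.52e-05). FOXO3, the forkhead factor best known as an activator of BCL2L11, had 51.0 and 49.2 CPM with sgNeg and 36.2 and 33.4 CPM with sgNPM1A, and fell by 0.52 (SE 0.08, adjusted p = 0.000705). In both genes the replicates lay close together and the conditions far apart, and both were called lower in all 13 other fits. E2F1 fell by 0.32 (adjusted p = 0.0101), at the edge of the fold threshold, and lost its call in 4 of 13 other fits. MYC was at -0.25 (adjusted p = 0.0159), under the fold threshold. The list's median was -0.29. At an unadjusted p under 0.05 edgeR, DESeq2 and limma-trend each gave 4 of the 8 lower, FOXO1, FOXO3, E2F1 and MYC. Each also gave 1 higher, TP73, at 0.27 with edgeR (adjusted p = 0.0808). Of all 15718 tested genes, 5896 passed this cut-off with edgeR, 4421 with DESeq2 and 5896 with limma-trend.

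Since forkhead, E2F and E-box factors stand on that list, their core motifs were searched, with the GC box, in the 250 bases before the start of each RefSeq promoter entry, on both strands. The forkhead core GTAAACA is present in 2.98% of 35116 promoters. MCL1, BIK, BCL2L2, BCL2L10 and BNIP3L have no entry. Among the 18 family genes with an entry it is in BCL2L11 and BCL2L14, 1 of which was tested. The E2F core GGCGGGAA is in 2.72% of all promoters and in the family in BCL2L12. The E-box CACGTG, which MYC can bind, is in 6.34% of all promoters and in BAX, where it occurs 4 times, BBC3, BID and BNIP3. The GC box GGGCGG is in 42.6% of all promoters and in the family in 16 of 29 entries, which belong to 12 of the 18 genes, and can overlap the E2F core. Shares over all promoters are per entry, and some genes have several. The BCL2L11 promoter is printed because BCL2L11 was the member called, with 76.8% G and C, its forkhead core and its 3 GC boxes in capitals.
BCL2L11 (GRCh38.p14, chr2:111120664-111120913, plus strand): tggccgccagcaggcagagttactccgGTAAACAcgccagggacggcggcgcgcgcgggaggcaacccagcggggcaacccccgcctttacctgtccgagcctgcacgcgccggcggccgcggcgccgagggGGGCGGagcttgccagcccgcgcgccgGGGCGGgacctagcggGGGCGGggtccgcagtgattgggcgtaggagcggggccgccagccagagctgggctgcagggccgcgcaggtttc
The matches describe these letters, and binding at them was not measured in these libraries. Whether the levels of FOXO1 and FOXO3 bear on that of BCL2L11 was not tested.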

How the data were processed

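RNA from OCI-AML3 cells was sequenced in 4 libraries. The authors mapped the reads to hg38 with STAR and deposited raw counts per Ensembl gene without normalization; the counting program and annotation are not given in the sources used here. Total counts were 25069484 to 28276391. Symbols were matched for 55646 of 58037 rows. edgeR 4.0.16 in R 4.3.3 was used: filterByExpr (minimum count 10), TMM, robust quasi-likelihood F test, two-sided, Benjamini-Hochberg adjustment over 15718 genes. Genes were called where the adjusted p was below 0.05 and the log2 fold change at least 0.32 in size. Exon lengths, overlaps, 50-base words and coding sequences came from GENCODE release 44 as mapped to GRCh37, not the build of the counts, so none of its positions are given; positions and promoters came from RefSeq on GRCh38.p14.

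The members and lists were chosen with earlier results of these data known. Named were all members, all tested family genes and the called genes of each further list (at most 4 per direction, by adjusted p). Some listed genes are not reported here and do not enter the counts and medians of their lists. APAF1, CASP9, XIAP, HUWE1, TP73, MYC, MIR4435-2HG, ABALON, BAK1P1, BNIP3P1 and IRF3 were named after their values were seen. Nothing in the labels says that the libraries of a condition came from separate cultures, though the study calls them biological replicates. The p-values therefore set a difference against the spread between these libraries, with variance shared between genes. Alternatives were DESeq2 1.42.0, limma-trend (limma 3.58.1) on quantile-normalized values, RLE, library size only, upper quartile, other filters, fold thresholds, a replicate block and leaving out each library.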

Additional observations from a re-analysis of the deposited data

How the results depend on the processing

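Over the 13 other fits BCL2L11, BIK, BNIP3, CYCS, NAIP, TNFRSF10A, CASP8, FOXO1 and FOXO3 kept their direction and their call. At a fold threshold of 2, 498 genes were called higher and 502 lower. With no fold threshold 2 members were called lower, BCL2L11 and BID. Leaving out each library in turn, where the lone library of a condition is assumed to vary like the other condition, gave a median log2 fold change of 0.11 to 0.18 for the anti-apoptotic members and of -0.17 to -0.039 for the pro-apoptotic members. BBC3 turned to 0.090 without sgNeg replicate 2. NPM1 was called lower (-0.42) with limma-trend on quantile-normalized values. The cause of these changes was not tested. Library size only gave 1433 genes higher and 1947 lower and moved the median of all tested genes to -0.04, and DESeq2 gave 1267 and 1242.

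The replicate numbers of the labels are shared between conditions, and nothing else pairs the libraries. The deviations of same-numbered libraries had a correlation of -0.13 over 15718 genes and of -0.52 over those 8856 whose mean was above 10 CPM, across genes, which are not independent replicates. Under the replicate block 1637 genes were called higher and 1604 lower (1572 and 1551 of them called without it), members called lower stayed at 1 and higher at 0, and of the genes named as called only FAS (adjusted p = 0.0651) and TNFSF10 (0.0811) lost their call. A crossed block, chosen after these correlations were seen, gave 1955 and 1918 genes. Depth limits BCL2A1, BOK, BIK, BCL2L15 and NAIP, each under 150 counts per library.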
